A study of Mus musculus with 6 samples.

Results

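The control colonies were the 2 libraries, of 6 in the series, made from mouse pancreatic colonies that carried a control shRNA. They were chosen by that label alone (titled replicates 1 and 3, called library 1 and library 3 here), and all 11164 genes of the expression table had a value in each. The donors were adult C57Bl/6 mice aged 2 to 4 months, and the starting cells were sorted from dissociated pancreas for high CD133 (a surface protein, gene Prom1) and for low CD71 (gene Tfrc, the receptor that takes up transferrin). The sorted cells met lentivirus overnight with polybrene and were then plated in methylcellulose with Matrigel, serum, conditioned medium, RSPO1, nicotinamide, exendin-4 and activin B, under puromycin. Primary colonies were harvested at 3 weeks, so every level below belongs to cultured colonies and not to freshly sorted cells. The control vector was 1 shRNA with no mammalian target, and all groups of the series shared the sort, the vector type, the selection and the medium. The labels do not tell whether the libraries came from separate mice, sorts or dishes, so the spread between them may be technical. Each library was a bulk extract, in which fewer cells of a type and less RNA per cell cannot be told apart.

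Duct cells line the pancreatic tubes that carry digestive enzymes, secrete bicarbonate-rich fluid and stain for simple epithelial keratins and for Sox9. Acinar cells make the enzymes and islet cells make hormones such as insulin and glucagon. Some duct-like cells of the adult gland form colonies in Matrigel, and the medium factors each act through known receptors: RSPO1 through LGR receptors and the surface ubiquitin ligases RNF43 and ZNRF3, exendin-4 through the GLP-1 receptor and cyclic AMP, and activin B through type II and type I serine-threonine kinase receptors to SMAD2 and SMAD3.

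Levels are in RPKM, reads per kilobase of transcript and per megaread of the library, which are scaled to length and can therefore be compared between genes. Ranks run from 1 for the highest mean of the libraries. The median gene stood at 9.17 RPKM, with quartiles at 4.00 and 20.4 RPKM. In both libraries, 10635 genes (95.3%) reached 1 RPKM, 5113 (45.8%) reached 10 RPKM, 374 (3.35%) reached 100 RPKM and 9 reached 1000 RPKM. The table holds genes that reached 1 RPKM in at least 1 of the 6 libraries, and a gene called without a value here has no row in the table used. To gauge what a missing row says, 163 nuclear genes that nearly every cell uses were looked up (ribosomal proteins, proteasome, RNA polymerase II, chaperonin, initiation factors and reference genes). Of these, 162 had a value and Cct6a did not. Such genes give no base rate for lists of other genes. Of 27025 genes with an entry in the RefSeq promoter table used below, 8788 were in the expression table. The share among all mouse genes was not determined, so a list with many members without a value was not read as depleted. None of the 13 protein-coding genes of the mitochondrial genome had a row, so a missing row was not read as a low level by itself. Estimated depth, which is approximate, was 26.8 megareads in library 1 and 29.2 megareads in library 3. At these depths 1 RPKM of a transcript of 2000 bases would correspond to about 53.6 and 58.4 reads, a counting error of 13.7% and 13.1%.

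Osteopontin RNA (Spp1) and clusterin RNA (Clu) were the highest of all genes. Spp1, a secreted matrix phosphoprotein made by duct cells, stood at 6490 RPKM in library 1 and 6733 RPKM in library 3, a mean of 6611 ± 172 (SD, n = 2) and 2.41% of the summed RPKM. Clu, a secreted chaperone, stood at 5420 and 5854 RPKM, or 2.05% of the sum. The 2 genes did not overlap, and both lay above the elongation factor Eef1a1, at 3970 and 4199 RPKM. The 10 highest genes held 9.23% of the summed RPKM in library 1 and 9.49% in library 3, and the 100 highest held 25.1% and 26.0%. It took 658 genes in library 1 and 610 in library 3 to reach 50% of the sum.

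Below Eef1a1 came S100a11, a calcium-binding protein gene, at 1493 and 1642 RPKM. The ribosomal stalk gene Rplp1 stood at 1500 and 1618 RPKM and overlapped it. The elongation factor Eef2, Tpt1, Rplp0 and Rps3a1 followed, with mean levels from 1433 RPKM down to 1071 RPKM. Together with Spp1, Clu and Eef1a1 they were the 9 genes above 1000 RPKM in both libraries. The ferritin heavy chain gene Fth1 had a mean of 988 RPKM and the ferritin light chain gene Ftl1 one of 985 RPKM. Mmp7, which encodes the secreted protease matrilysin, lay at 841 RPKM in library 1 and 1130 RPKM in library 3, so its rank was 18 in one and 9 in the other. Rps24, Krt18, Rpl17, Rpl8, Hsp90ab1, Rpl23a, Ptma and Actg1 completed the 20 highest, with means from 973 to 815 RPKM. The lists of the 20 highest genes in the separate libraries shared 19 genes. Ferritin and ribosomal protein genes have many near-identical copies in the mouse genome, and how reads from such copies were counted is not given in the sources used here.

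**Figure D1:**
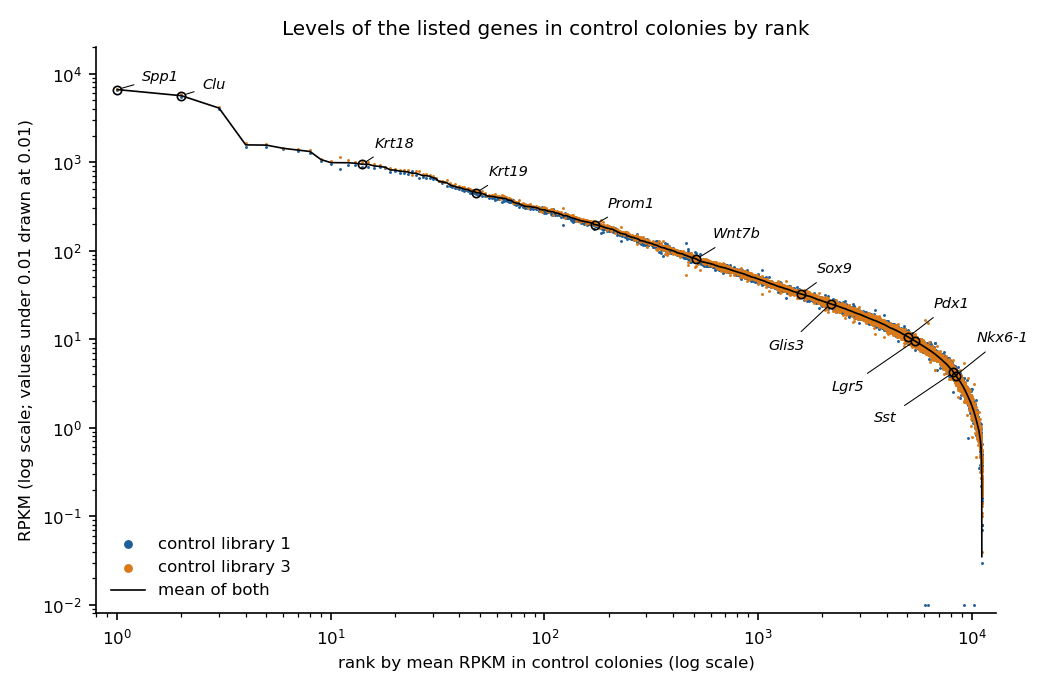
RPKM of every gene (log scale, values under 0.01 drawn at 0.01) against its rank by mean RPKM (log scale), with blue points for library 1, orange points for library 3, a black line for the mean and circles on named genes. Spp1 and Clu sit at ranks 1 and 2, Krt19 at rank 48 and Prom1 at rank 172, while Pdx1, Lgr5, Nkx6-1 and Sst sit on the shoulder where levels fall towards 1 RPKM.

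The bases before the start are shown for the highest gene (Spp1) and the highest protease gene (Mmp7), both with entries in the RefSeq promoter table. The stretches cover the 100 bases upstream of the RefSeq start in GRCm38.p6 (the assembly of mm10), read 5′ to 3′ on the gene's strand, at chr5:104435011-104435110 (plus strand) and chr9:7691990-7692089 (plus strand). Each gene has 2 entries, and the one farther upstream is given. Capitals mark matches, on either strand, to the TATA box core TATAAA, to TGANTCA (the core bound by AP-1, that is Fos and Jun proteins), to the GC box GGGCGG or to the CCAAT box.

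Spp1: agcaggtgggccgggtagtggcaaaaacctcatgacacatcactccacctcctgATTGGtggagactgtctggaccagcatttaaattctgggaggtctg

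Mmp7: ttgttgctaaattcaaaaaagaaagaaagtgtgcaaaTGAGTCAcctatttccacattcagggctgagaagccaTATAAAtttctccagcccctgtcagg

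In the Mmp7 stretch TATAAA began 26 bases before the start and TGANTCA, which reads the same on both strands, 63 bases before it. The Spp1 stretch held CCAAT on the other strand, 46 bases before the start. Over whole 300-base entries (250 bases before to 50 after each start), TATAAA occurred in 24.1% of the 79 entries of the 100 highest genes, of which 67 had an entry. It occurred in 6.91% of the 11194 entries of all genes in the table, and in 13.6% of the 32851 RefSeq entries. For the entries of the 100 highest genes the other shares were 5.06% for TGANTCA, 59.5% for GGGCGG and 36.7% for CCAAT. For all genes in the table they were 4.97%, 64.6% and 37.8%, and for all entries 7.81%, 35.7% and 37.4%. Among the entries of listed secreted genes with a value, 20.9% held TATAAA and 12.8% held TGANTCA. A match is only a run of letters, and no binding was measured.

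The genes that mark the colonies were all present, at levels that spanned the upper part of the table. Krt19, a simple epithelial keratin of duct cells, stood at 432 and 474 RPKM, a mean of 453 ± 29.3 (SD, n = 2) and rank 48. Prom1 stood at 191 and 203 RPKM, a mean of 197 ± 8.61 and rank 172, between Tmsb4x and Ier2. Wnt7b, a Wnt ligand, stood at 78.1 and 82.8 RPKM and rank 514. Sox9, the duct and progenitor transcription factor, stood at 33.7 and 31.4 RPKM and rank 1585, level with Pbxip1 and Pdxk. Glis3, a zinc-finger factor of the Gli-related family, lay at 26.1 and 24.2 RPKM, rank 2188, between Slc2a1 and Epha4. Sox9 was 1.29 and 1.30 times as high as Glis3 in the 2 libraries. Prom1 RNA, whose protein was selected high in the sort, stood at 5.02 and 5.62 times that of Tfrc, whose protein was selected low (38.1 and 36.2 RPKM, rank 1351). The sort itself was on surface protein before culture. In GENCODE vM21, Prom1 lies on chromosome 5 at 43993620 to 44102032 (minus strand), Glis3 on chromosome 19 at 28258851 to 28680077 (minus strand) and Spp1 on chromosome 5 at 104435118 to 104441050 (plus strand).

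Ductal genes formed the fullest of the cell type lists. Of 32 ductal markers, 30 had a value, and Cftr (the apical chloride channel) and Cldn10 did not. In both libraries, 29 reached 1 RPKM, 27 reached 10 RPKM and 13 reached 100 RPKM, and the median of members with a value was 85.9 RPKM beside 9.17 RPKM over all genes. The list includes the colonies' own marker genes Spp1, Prom1, Sox9, Krt19 and Wnt7b, and it was chosen with earlier results of these data known. The count and the median are therefore partly set by the choice of members. Keratins were ordered Krt18 (890 and 1004 RPKM), Krt8 (663 and 793 RPKM), Krt19 and Krt7 (69.1 and 73.4 RPKM), with no overlap between neighbours. Krt18 and Krt8 encode partner keratins that assemble together. The adhesion genes Epcam and Cdh1 had means of 389 and 344 RPKM. The bicarbonate and water genes Car2 (137 and 164 RPKM), Slc4a4 (70.9 and 64.0 RPKM) and Aqp1 (52.1 and 47.1 RPKM) lay below the keratins. The chloride and bicarbonate exchanger Slc26a3 was the lowest member, at 1.03 and 0.50 RPKM. The RNA-binding protein gene Bicc1 stood at 127 and 119 RPKM. Pkd2 and Pkhd1, genes of polycystic kidney disease whose proteins act at the primary cilium, stood at 28.6 and 25.8 RPKM and at 8.53 and 7.17 RPKM.

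Transcription factors of pancreas progenitors had 24 of 27 members with a value, and 22 reached 1 RPKM in both libraries. Insm1 (0.80 and 0.82 RPKM) and Neurog3 did not. The highest was Klf5, an epithelial zinc-finger factor, at 224 and 201 RPKM. Hhex, a homeobox factor of the early foregut and of ducts, stood at 182 and 182 RPKM. Onecut2 stood at 118 and 89.6 RPKM and the Notch target Hes1 at 67.5 and 68.1 RPKM. These 4 did not overlap in order, and only Klf5 and Hhex of the list reached 100 RPKM in both libraries. Foxa2, Gata6, Hnf4a and Onecut1 lay between Hes1 and Tead1 in order. Pdx1, which marks the pancreas bud and later the beta cell, lay at 10.2 and 11.0 RPKM, rank 5043. Nkx6-1 was at 4.11 and 3.67 RPKM, Nkx2-2 at 2.07 and 2.13 RPKM, and Neurog3, the switch gene of endocrine progenitors, at 0.16 and 0.43 RPKM. Ptf1a, Hnf4g and Mnx1 had no value. The list's median was 11.4 RPKM, near that of all genes.

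Enzyme genes of acinar cells were missing from the table with few exceptions. Of 30 acinar markers 28 had no value, among them Amy1, Amy2a5, Cpa1, Cpb1, Ctrb1, Cel, Pnlip, Prss1, Prss2, Sycn, Zg16, Bhlha15, Rbpjl and Ptf1a. The 2 with a value were Reg1, a secreted lectin gene of acinar and injured pancreas, at 197 and 304 RPKM, and the elastase gene Cela1, at 0.58 and 0.84 RPKM. Reg1 was thus 339 and 362 times as high as Cela1. Reg1 has close paralogs, and how reads shared with them were counted is not given in the sources used here.

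Islet genes were at the low end or had no value. Of 20 hormone and granule genes, 10 had a value, 4 reached 1 RPKM in both libraries, and the median of those with a value was 1.59 RPKM. Carboxypeptidase E (Cpe), which many secretory cells use, was the highest at 20.6 and 23.8 RPKM. Somatostatin (Sst) stood at 2.56 and 5.89 RPKM, Ptprn at 4.02 and 4.17 RPKM, ghrelin (Ghrl) at 2.15 and 4.48 RPKM and peptide YY (Pyy) at 0.77 and 3.64 RPKM. Glucagon (Gcg) was at 0.35 and 1.51 RPKM, pancreatic polypeptide (Ppy) at 0.22 and 1.03 RPKM and chromogranin A (Chga) at 0.38 and 1.27 RPKM. All of these were higher in library 3, as were 9 of the 10 members, the exception being Pcsk1 at 0.44 and 0.34 RPKM. Over all genes 50.7% were higher in library 3, and among genes of 1 to 3 RPKM the share was 39.1%. The share also varied with transcript length, at 92.8% under 1000 bases among genes of at least 10 RPKM. The list was not matched for length. The summed level of the list was 32.4 RPKM in library 1 and 47.2 RPKM in library 3. The median difference over the list was 0.73 on the log2(RPKM + 1) scale, on levels that rest on few reads. On that scale, 95% of all genes under 1 RPKM differed by at most 0.34, and 95% of those from 1 to 3 RPKM by at most 0.32. Among genes of at least 10 RPKM, transcripts under 1000 bases had a median difference of 0.13. The cause of the list's difference was not tested. A difference between 2 libraries has no replicate of its own. Ins1, Ins2 and Iapp, the beta cell hormone genes, had no value, nor did Pcsk2, Scg2, Scg3, Scg5, Ptprn2, Syp and Ucn3. Of 20 endocrine factors and glucose-sensing genes, 5 had a value, with Nkx6-1 highest and Neurog3 lowest. Neurod1, Pax4, Pax6, Mafa, Isl1, Rfx6, Fev, Slc30a8, G6pc2, Slc2a2, Abcc8, Kcnj11 and Glp1r were among the 15 without.

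**Figure D2:**
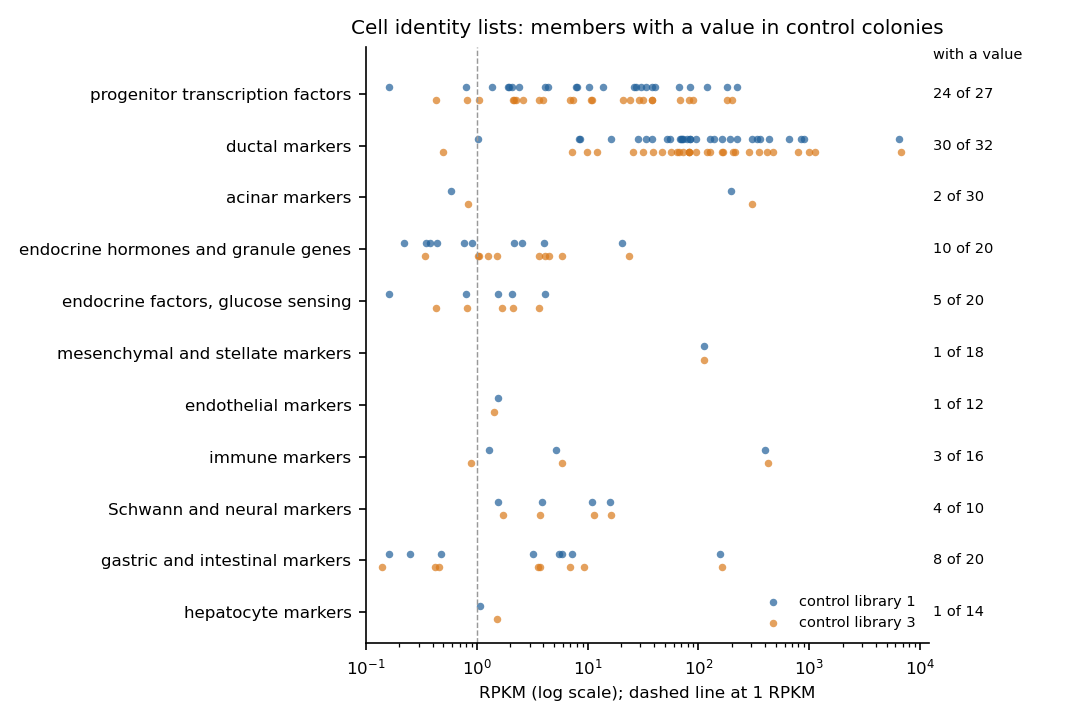
RPKM (log scale) of every member with a value in 11 cell identity lists, with blue points for library 1, orange points for library 3, a dashed line at 1 RPKM and, at the right, the members with a value of those listed. Ductal markers (30 of 32) fill the range up to Spp1, whereas acinar markers have 2 of 30 members with a value and mesenchymal markers 1 of 18.

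Markers of cell types outside the epithelium were mostly without a value, and the cell source of those present was not tested. Of 18 mesenchymal and stellate markers, only fibronectin (Fn1) had a value, at 112 and 112 RPKM. Col1a1, Col1a2, Col3a1, Pdgfra, Pdgfrb, Acta2, Vim, Des, Dcn, Lum, Thy1, Sparc, Postn, Tagln, Twist1, Zeb1 and Zeb2 had none. Of 12 endothelial markers, the junction gene Esam alone had a value, at 1.56 and 1.42 RPKM, and Pecam1, Cdh5, Kdr and Tek were among the 11 without. Of 16 immune markers, 3 had a value, and their order was wide. Cd14, the lipopolysaccharide co-receptor, ranked 57 at 395 and 422 RPKM. Cd68 stood at 5.23 and 5.83 RPKM and Aif1 at 1.29 and 0.89 RPKM. The pan-leukocyte gene Ptprc had no value, nor did the myeloid genes Adgre1, Csf1r, Lyz2, Itgam, Tyrobp and Fcer1g or the lymphoid genes Cd3e and Cd79a. Schwann and neural markers had 4 of 10 members with a value, from the myelin-associated enzyme gene Cnp (15.8 and 16.3 RPKM) and Mbp (11.0 and 11.4 RPKM) to Ncam1 and the neuronal tubulin Tubb3 (1.56 and 1.71 RPKM), and Sox10, S100b, Ngfr and Gfap were among the 6 without.

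Genes of neighbouring gut and liver epithelia gave a mixed picture. Of 20 gastric and intestinal markers, 8 had a value and 5 reached 1 RPKM in both libraries. Dmbt1, a mucosal scavenger receptor secreted by many ducts, led at 157 and 164 RPKM. The microvillus gene Vil1 stood at 5.92 and 9.33 RPKM, the intestinal homeobox factor Cdx2 at 7.21 and 6.92 RPKM, Anxa13 at 5.47 and 3.56 RPKM and the trefoil gene Tff2 at 3.20 and 3.70 RPKM. Pgc, Olfm4 and Tff1 were under 1 RPKM in both libraries, and the gel-forming mucins Muc2, Muc5ac, Muc5b and Muc6 had no value, with Cdx1, Sox2, Agr2, Tff3, Gkn1, Gkn2, Gkn3 and Lyz1. Of 14 hepatocyte markers, the fibrinogen chain gene Fga had a value, at 1.08 and 1.53 RPKM, and Alb, Afp, Apoa1, Apob and Cyp2e1 were among the 13 without.

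Secreted products were described from 10 lists of 297 genes, of which 166 had a value. Together they held 7.52% of the summed RPKM in library 1 and 7.71% in library 3. Much of that share came from Spp1 and Clu, at 2.41% and 2.05% of the sum. After Spp1, Clu and Mmp7, the highest were Lcn2, C3, Igfbp7 and Cxcl5. Of the listed genes, 20 reached 100 RPKM in both libraries.

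**Figure D3:**
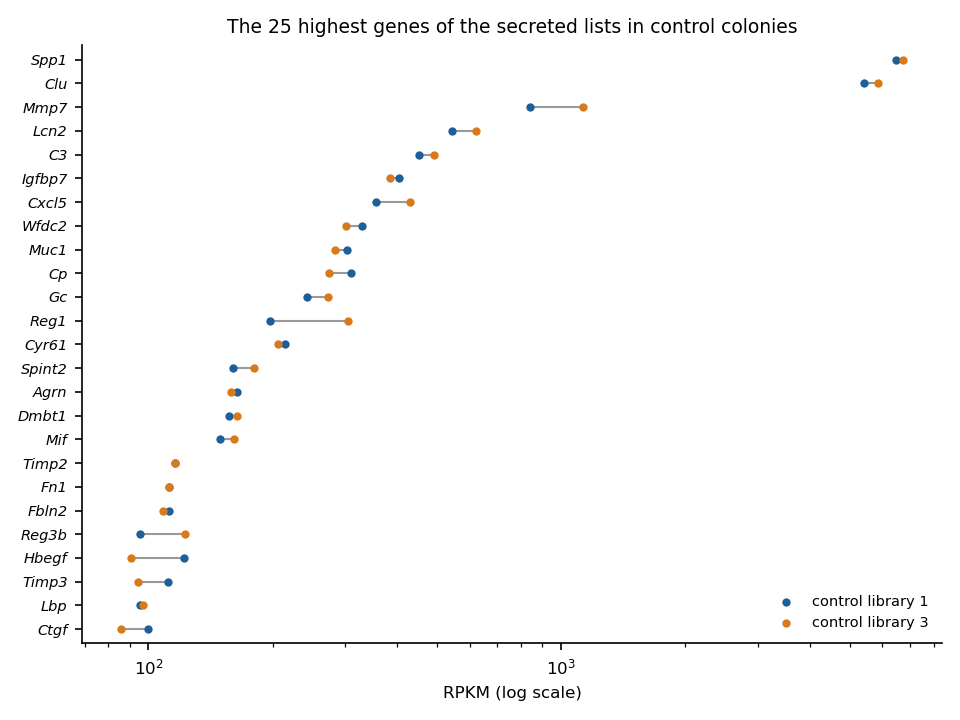
RPKM (log scale) of the 25 highest genes of the secreted lists, one row per gene, with a blue point for library 1, an orange point for library 3 and a line between them. Spp1 and Clu stand apart at the top, Mmp7 follows near 1000 RPKM, and Reg1, Mmp7 and Hbegf show the widest gaps between the libraries.

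Plasma-type, complement and acute phase genes had 22 of 32 members with a value. Lcn2, an iron-siderophore binding protein of stressed epithelia, stood at 544 and 623 RPKM. The complement component C3 stood at 453 and 493 RPKM, ceruloplasmin (Cp), a copper ferroxidase, at 309 and 274 RPKM, and the vitamin D binding protein (Gc) at 243 and 273 RPKM. None of these 4 overlapped its neighbour. Saa3, the lowest member, was at 0.19 and 0.47 RPKM. Apoe, Apoc1, Apod, Cfb, Saa1, Saa2, Orm2, C1ra, Itih4 and F5 had no value.

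Antimicrobial and mucosal products had 14 of 33 members with a value. They were led by the transmembrane mucin Muc1 (302 and 284 RPKM), whose range overlapped that of Reg1, and by Dmbt1. Reg3b, a bactericidal lectin, stood at 95.3 and 123 RPKM and lactoferrin (Ltf) at 81.4 and 89.2 RPKM. Tff1 was lowest at 0.16 and 0.14 RPKM. Of the members with a value, 11 of 14 were higher in library 3, beside 50.7% of all genes. That share was 81.8% for genes at 100 RPKM or more. Among genes of at least 10 RPKM it was 92.8% for transcripts under 1000 bases. The list was not matched for level or length, so the count was not read as a trait of its members. The calprotectin genes S100a8 and S100a9, Reg2, Reg3a, Reg3d, Camp, Defb1 and Pigr were among the 19 without a value.

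Proteases and their inhibitors had 26 of 36 members with a value. All 26 were at or above 1 RPKM in both libraries, beside 95.3% of all genes in the table. After Mmp7 came the small inhibitor-type protein Wfdc2 (329 and 301 RPKM), the Kunitz inhibitor Spint2 (161 and 180 RPKM), and the metalloprotease inhibitors Timp2 (116 and 116 RPKM) and Timp3 (112 and 94.4 RPKM). Timp2 was 6.92 and 5.27 times as high as Timp1. Prss23 was lowest, at 1.00 and 1.14 RPKM. Mmp1a, Mmp2, Mmp3, Mmp9, Mmp10, Mmp12, Timp4, Serpina3n, Cst6 and Klk1 had no value.

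Matrix genes had 24 of 36 members with a value. Below Spp1 were agrin (Agrn, 164 and 159 RPKM), fibronectin, fibulin Fbln2 (112 and 109 RPKM) and thrombospondin Thbs1 (99.6 and 73.9 RPKM). The ranges of Fn1 and Fbln2 overlapped. The basement membrane linker Nid2 was lowest, at 0.20 and 0.23 RPKM. Col4a3, Col15a1, Col6a2, Col7a1, Col17a1, Lama1, Lama2, Sparc, Thbs2, Vtn, Fbln1 and Smoc2 had no value.

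Growth factors of the EGF, FGF, PDGF and VEGF families and related genes had 21 of 40 members with a value. Cyr61, a matricellular target of YAP and serum factors, stood at 215 and 206 RPKM, and its family member Ctgf at 99.95 and 85.97 RPKM. The EGF receptor ligand Hbegf (122 and 90.8 RPKM) overlapped Ctgf. Hdgf (92.4 and 91.9 RPKM) and Vegfa (68.9 and 57.1 RPKM) followed, and Vegfc was lowest at 0.93 and 1.04 RPKM. Egf, Epgn, Nrg4, Fgf1, Fgf2, Fgf7, Fgf10, Fgf15, Fgf21, Pgf, Hgf, Igf1, Igf2, Bdnf, Gdnf, Shh, Dhh, Mdk and Ptn had no value. Among IGF binding proteins, Igfbp7 stood at 404 and 385 RPKM, 19.2 and 17.4 times Igfbp3 (21.1 and 22.1 RPKM). Igfbp5 and Igfbp4 were lower, and Igfbp1, Igfbp2 and Igfbp6 had no value.

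Chemokine and cytokine genes had 24 of 45 members with a value, with a median of 5.99 RPKM. Cxcl5, a neutrophil attractant of epithelia, led at 356 and 430 RPKM, 15.3 and 18.4 times its relative Cxcl1. Mif (149 and 161 RPKM), Cxcl16 (75.3 and 75.5 RPKM), the interleukin-1 antagonist Il1rn (48.2 and 64.0 RPKM) and Cx3cl1 (43.5 and 42.2 RPKM) came next, and no neighbours among these 5 overlapped. Il15 was lowest at 0.50 and 0.36 RPKM. Il1b, Il6, Il10, Il12a, Tslp, Ifnb1, Cxcl9, Cxcl10, Cxcl14, Ccl5 and Ccl28 were among the 21 without a value.

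Wnt ligand genes had 8 of 19 members with a value, and none of the 8 overlapped its neighbour in order. Wnt7b was 3.16 and 3.08 times as high as Wnt7a, its closest relative, which stood at 24.7 and 26.9 RPKM. Wnt4 followed at 18.5 and 19.2 RPKM, Wnt5b at 16.7 and 14.1 RPKM and Wnt10a at 7.28 and 7.11 RPKM. Wnt9a was lowest at 1.48 and 1.03 RPKM, and Wnt1, Wnt2, Wnt2b, Wnt3, Wnt3a, Wnt6, Wnt8a, Wnt8b, Wnt9b, Wnt10b and Wnt11 had no value. Of 17 secreted Wnt regulators, 3 had a value: the Wnt deacylase Notum at 11.6 and 12.8 RPKM, Dkk2 at 6.01 and 5.37 RPKM and Sfrp1 at 1.30 and 0.85 RPKM. All 4 R-spondin genes (Rspo1 to Rspo4) were without a value, in a medium that supplied RSPO1, as were Dkk1, Dkk3, Dkk4, Sfrp2, Sfrp3, Sfrp4, Sfrp5, Wif1, Sost and Sostdc1.

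Ligands and inhibitors of the TGF-beta family had 20 of 32 members with a value. The latent TGF-beta binding protein Ltbp3 (86.2 and 77.5 RPKM) and Tgfb3 (72.4 and 79.2 RPKM) led and overlapped. Tgfb3 was 14.4 and 14.5 times as high as Tgfb1. The activin chain genes were both present: Inhba, whose dimer is activin A, stood at 24.2 and 19.97 RPKM, and Inhbb, whose dimer is the activin B added to the medium, at 15.8 and 13.5 RPKM. Inhba overlapped Bmp1 in order, and Inhbb overlapped Bmp4. Among the activin traps, Fst stood at 2.81 and 1.95 RPKM and Fstl3 at 3.75 and 3.66 RPKM. The lowest member was Bmp2, at 0.64 and 0.80 RPKM. Nodal, Lefty1, Inhbc, Inhbe, Nog, Chrd, Grem1, Mstn, Gdf9, Bmp3, Bmp5 and Bmp8a had no value.

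Receptors for RSPO1 and its ligase targets had 4 of 5 members with a value. Rnf43 stood at 21.2 and 20.6 RPKM and Lgr4 at 21.4 and 19.5 RPKM, and the 2 overlapped. Znrf3 was lower at 11.6 and 10.7 RPKM, and Lgr5, a stem cell marker of several epithelia, lay at 9.90 and 9.26 RPKM, rank 5415. Lgr4 was 2.16 and 2.11 times as high as Lgr5, and Lgr6 had no value.

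Of 20 Wnt receptor and co-receptor genes, 14 had a value and 6 reached 10 RPKM in both libraries. Ptk7, a pseudokinase receptor of planar polarity, stood at 45.3 and 46.2 RPKM. Lrp5 was at 27.5 and 28.5 RPKM, Ryk at 25.5 and 25.8 RPKM and Lrp6 at 19.1 and 17.4 RPKM. The highest Frizzled gene was Fzd6, at 22.1 and 21.7 RPKM, 17.9 and 19.4 times the lowest, Fzd10. Fzd9, Ror1, Ror2, Kremen2, Reck and Adgra2 had no value. Inside the cell, 24 of 27 Wnt pathway genes had a value. Beta-catenin (Ctnnb1), the effector of the canonical pathway, ranked 33 at 586 and 613 RPKM, whereas the next, the kinase gene Csnk1a1, was at 54.9 and 56.7 RPKM. Gsk3a, Pygo2 and the Wnt carrier Wls completed the 5 highest, and the repressor Tcf7l1 was lowest at 1.21 and 0.83 RPKM. Apc2, Pygo1 and Lef1 had no value.

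The receptor of exendin-4 (Glp1r) had no value, nor did any of the other 7 receptors of the glucagon and secretin peptide family that were looked up (Glp2r, Gipr, Gcgr, Sctr, Vipr1, Vipr2 and Adcyap1r1). Of 19 genes of cyclic AMP signalling, the step that follows this receptor, 11 had a value. The kinase regulatory subunit Prkar1a stood at 85.5 and 90.1 RPKM, the stimulatory G protein Gnas at 57.7 and 57.7 RPKM and the catalytic subunit Prkaca at 43.5 and 44.0 RPKM. Among adenylyl cyclases, Adcy8 was highest at 32.9 and 32.1 RPKM, followed by Adcy6 at 28.0 and 24.8 RPKM. Crem was the lowest gene with a value, at 2.22 and 2.33 RPKM. Adcy1, Adcy2, Adcy4, Adcy5, Adcy7, Gnal, Rapgef3 and Rapgef4 had no value.

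Activin and TGF-beta family receptors had 9 of 15 members with a value. All 9 were at or above 1 RPKM in both libraries, beside 95.3% of all genes in the table. Acvr1b, a type I activin receptor, was at 18.5 and 16.5 RPKM. The type II activin receptors were lower, with Acvr2a at 8.89 and 8.53 RPKM and Acvr2b at 2.93 and 2.25 RPKM. Acvr1b was thus 2.08 and 1.94 times as high as Acvr2a. Receptors of the related ligands were Bmpr1a at 38.2 and 37.1 RPKM, Tgfbr1 at 29.8 and 30.8 RPKM, Tgfbr2 at 22.9 and 24.4 RPKM, Acvr1 at 15.2 and 14.4 RPKM and Bmpr2 at 15.8 and 13.2 RPKM. Acvr1 and Bmpr2 overlapped, and the other neighbours in the list did not. The decoy receptor Bambi was lowest at 1.16 and 1.11 RPKM, and Acvr1c, Acvrl1, Tgfbr3, Bmpr1b, Amhr2 and Tdgf1 had no value. Of 8 Smad genes, 7 had a value, from Smad3 at 42.8 and 40.8 RPKM to Smad6 at 9.32 and 9.10 RPKM, and Smad9 had none.

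**Figure D4:**
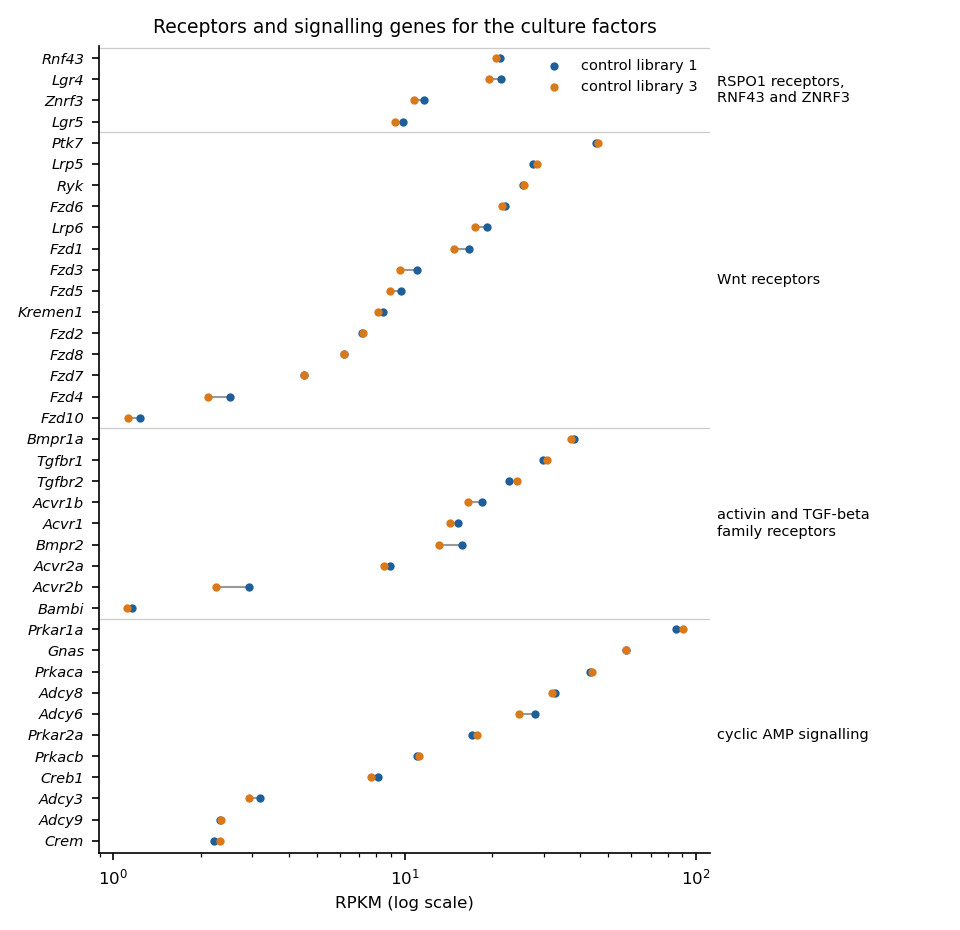
RPKM (log scale) of genes with a value among RSPO1 receptors and ligases, Wnt receptors, activin and TGF-beta family receptors and cyclic AMP signalling genes, with a blue point for library 1, an orange point for library 3 and a line between them. Most receptors lie between 5 and 50 RPKM, with Bmpr1a and Ptk7 highest and Bambi and Fzd10 lowest.

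Genes of nicotinamide and NAD metabolism had 18 of 23 members with a value, with a median of 6.03 RPKM. All 18 were at or above 1 RPKM in both libraries, beside 95.3% of all genes in the table. NAD kinase (Nadk) was highest at 46.7 and 47.8 RPKM. Parp1, an NAD-consuming DNA repair enzyme, stood at 23.1 and 22.9 RPKM, Parp2 at 13.2 and 13.5 RPKM, Sirt2 at 11.9 and 11.4 RPKM and Nampt, which salvages nicotinamide, at 9.50 and 9.23 RPKM. Nmrk1 was lowest at 1.35 and 1.07 RPKM. The nicotinamide methyltransferase Nnmt had no value, nor did Nmnat2, Qprt, Bst1 and Aox1.

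Matrix receptors had the highest median of the receptor lists. Of 26 laminin, collagen and other matrix receptors, 19 had a value, with a median of 43.1 RPKM, and 5 reached 100 RPKM in both libraries. Cd44, the hyaluronan and osteopontin receptor, ranked 54 at 413 and 415 RPKM. The syndecan Sdc4 stood at 225 and 226 RPKM, the integrin beta chain Itgb1 at 204 and 205 RPKM, the laminin receptor Bcam at 158 and 154 RPKM and Sdc1 at 117 and 130 RPKM. These 5 did not overlap. Itga3 was 4.52 and 3.45 times as high as Itga6, its fellow laminin-binding chain. Itga1 was lowest at 0.81 and 1.00 RPKM, and Itga7, Itga8, Itga9, Itga10, Itga11, Itgb8 and Ddr2 had no value.

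Growth factor receptors had 17 of 22 members with a value, with a median of 12.5 RPKM and none at 100 RPKM. Igf2r led at 52.2 and 43.9 RPKM, followed by the Eph receptors Ephb4 (41.1 and 39.9 RPKM) and Epha2 (43.5 and 33.8 RPKM), which overlapped, and by Erbb3 (33.1 and 33.3 RPKM) and Erbb2 (32.8 and 30.2 RPKM). Kit was lowest at 1.00 and 0.94 RPKM. Erbb4, Mst1r, Pdgfra, Pdgfrb and Ntrk2 had no value. Receptors that take up serum proteins had 9 of 11 members with a value, with Tfrc highest and Lrp2 lowest at 0.54 and 0.13 RPKM, and Tfr2 and Cubn had none.

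All 25 cell cycle genes had a value of at least 1 RPKM in both libraries, beside 95.3% of all genes in the table. Their median was 11.4 RPKM. Cyclin D1 (Ccnd1) led at 145 and 137 RPKM, 3.86 and 4.37 times Ccnd2. Cdk4 (70.1 and 73.7 RPKM), the replication clamp Pcna (54.9 and 61.5 RPKM), and the inhibitors Cdkn1a (58.7 and 49.5 RPKM) and Cdkn2b (36.3 and 38.2 RPKM) came next, and Cdkn1c was lowest at 1.30 and 1.31 RPKM. Genes that cycling cells use and genes that block the cycle were therefore both among the 5 highest.

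The control libraries resembled each other closely, with trends by level and by transcript length. Across genes, which are not independent replicates, Pearson's r of log2(RPKM + 1) was 0.995 and Spearman's rho 0.995. The median absolute difference was 0.08 on the log2 scale, 95% of genes differed by at most 0.28, and 8 genes differed by more than 1. The share of genes higher in library 3 was 40.5% under 1 RPKM, 53.7% from 10 to 30 RPKM and 81.8% at 100 RPKM or more. Among genes of at least 10 RPKM, those with a longest GENCODE transcript under 1000 bases (333 genes) had a median difference, library 3 minus library 1, of 0.13, and 92.8% were higher in library 3. Genes of 10000 bases or more (79 genes) had a median of -0.22, and 2.53% were higher in library 3. Over 5175 genes the correlation of the difference with log2 length was -0.56 (Pearson) and -0.60 (Spearman), given as a description. Of the cytosolic ribosomal protein genes, 77 of 79 were higher in library 3, and 74 of the 79 reached 100 RPKM in both libraries. Level and length were not separated.

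**Figure D5:**
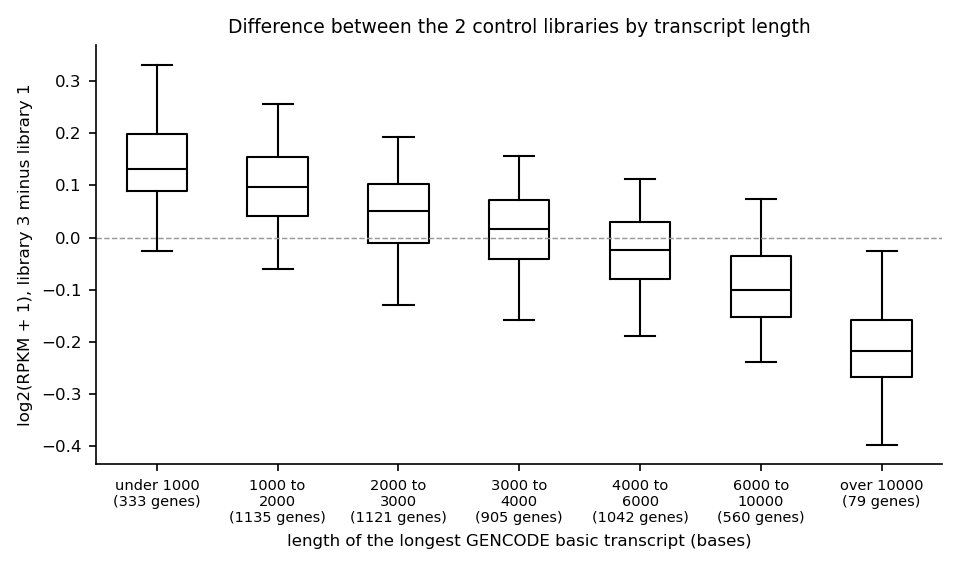
Difference of log2(RPKM + 1), library 3 minus library 1, for genes of at least 10 RPKM in 7 classes of longest GENCODE basic transcript (bases), where each box spans the quartiles around the median line and whiskers reach the 5th and 95th percentiles. The median falls from 0.13 in genes under 1000 bases to -0.22 in genes of 10000 bases or more.

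Among genes of at least 10 RPKM, the widest gaps between the libraries were named in each direction. The immediate early genes Fosb (123 and 53.8 RPKM) and Atf3 (60.0 and 32.6 RPKM) were lower in library 3, with Leng8, Csrnp1 and Kdm6a. Reg1, Ugt2b35, the metallothionein Mt2, Spink4 and Sult1a1 were higher in library 3. Spink4, a small secreted inhibitor-type gene of mucosa, stood at 87.6 and 129 RPKM. The differences ranged from -1.18 for Fosb to 0.63 for Reg1 on the log2(RPKM + 1) scale. With 2 libraries these gaps have no replicate of their own.

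Exons of several named genes overlap exons of a gene on the opposite strand in GENCODE vM21: Prom1 with the antisense gene Gm16401, Igfbp7 with Polr2b, Cp with Hps3, Acvr2a with Orc4, Col4a1 with Col4a2, Vil1 with Usp37, Cdk4 with Tspan31, Erbb2 with Mien1 and Neurog3 with Fam241b. The library kit kept strand, per the labels' protocols, but whether counting used it is not given in the sources used here. Nor is it given how reads in a shared stretch were counted. The levels of these genes may therefore be too high or too low.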

How the data were processed

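Poly(A)-selected, stranded RNA-seq of bulk colonies gave 6 libraries, of which the 2 control libraries are described. The authors deposited 1 table of RPKM values with 2 decimals, and the tools listed in the submitters' processing notes are TopHat2, HTSeq and bcl2fastq 2.18.0.12, with build mm10 and no order or settings. Not given in the sources used here are the annotation, the transcript lengths, the library totals and whether strand was used in counting. Columns were matched to samples by the names in the sample descriptions.

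Levels were read as deposited. Means, SDs, ranks and shares of the summed RPKM were computed with Python 3.11.15, pandas 2.3.3 and numpy 2.4.6, and plots with matplotlib 3.10.9. Neighbouring genes in order were called different where the ranges of their 2 libraries did not overlap. Differences between libraries used log2(RPKM + 1). With 1 group there was no comparison, no test and no p-value. Depth came from the spacing of low values (genes with a transcript under 1200 bases and under 3 RPKM). Within 0.15 read, 58.3% of 103 values in library 1 and 59.6% of 99 in library 3 came out whole. Chance gives 30% at a depth fixed in advance. The depth was instead the best of those scanned from 3 to 80 megareads, so 30% is too low a base and the depth is approximate. The reads themselves were not recovered.

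The 39 lists (875 distinct genes) and the colonies' marker genes were chosen with earlier results of these data known. Symbols were matched directly or through RefSeq synonyms, and 10842 of 11164 table genes matched a RefSeq symbol. The rule for named genes took Glis3, the 5 marker genes with the ranks beside them, the 20 highest genes with an assigned name, the 5 highest and the lowest member of each list of identity, secreted, context and other receptor genes, all receptors of a culture factor, members without a value, and the 5 widest gaps between libraries per direction among genes of at least 10 RPKM. Of members without a value, some lists are named in part, and a few genes that the rule takes are not reported here. Other genes, such as Pdx1, Nkx6-1, Krt7, Car2, Slc4a4, Aqp1, Bicc1, Pkd2, Pkhd1, hormone genes beyond the 5 highest, Timp1, Fst, Fstl3 and Cxcl1, were named for their known role after their values were seen. Promoter bases are from RefSeq (GRCm38.p6), and the genes shown and the 4 motifs were also chosen after values were seen. Clu, Krt19, Wnt7b and Sox9 had no entry there. Coordinates are from GENCODE vM21.

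Alternatives tried were leaving out each library, other levels and filters, other scales for ranks, exact symbols only and setting missing members to 0.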

Additional observations from a re-analysis of the deposited data

How the results depend on the processing

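Counts over 39 lists and ranks of 564 listed or named genes were recomputed under each alternative. Without control replicate 1 the genes at or above 1000 RPKM numbered 14, and without control replicate 3 they numbered 9, beside 9 in both libraries. When a member had to reach a mean of 1 RPKM, acinar markers with a value went from 2 to 1, endocrine hormones and granule genes from 10 to 5, endocrine factors and glucose-sensing genes from 5 to 3 and gastric and intestinal markers from 8 to 5, while the other 35 lists moved less. Exact symbols changed none of the 39 list counts by more than 1.5 times. The 10 highest genes held 9.36% of the summed RPKM, or 10.1% without ribosomal protein genes. Leaving out a library moved the median gene by 45.5 or 45 ranks, and the widest move was that of Pyy, by 1095 ranks without replicate 1 and 1283 without replicate 3. With members that have no value set to 0, the median level of 31 of 37 lists moved by more than the spread between libraries. Precision was limited by 2 libraries and, under about 1 RPKM, by few reads. No test was made between groups, so no paired analysis was made.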

Other observations

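Several genes outside the lists stood near the top of the control colonies and were named after their values were seen. Gabrp, the pi subunit of the GABA-A receptor family, ranked 28 at 660 and 744 RPKM in libraries 1 and 3. Cd24a, a surface glycoprotein of many epithelial progenitors, ranked 29 at 668 and 720 RPKM. Scara3, a scavenger receptor gene, ranked 34 at 595 and 591 RPKM. Cldn2, which forms cation and water pores in tight junctions, ranked 43 at 480 and 503 RPKM.

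The immediate early genes Fos, Egr1, Jun and Ier2, which cells transcribe within minutes of a stimulus, were picked for their high values and do not stand for the whole group, since Csrnp1 ranked 3889. Fos ranked 24 at 786 and 715 RPKM, Egr1 ranked 110 at 294 and 254 RPKM, Jun ranked 125 at 264 and 234 RPKM and Ier2 ranked 173 at 197 and 195 RPKM. Each of these was higher in library 1, though Ier2 by little (196.94 and 195.43 RPKM). Among all genes at 100 RPKM or more, 81.8% were higher in library 3. The genes were picked by level and not matched for length, so their direction was not read as a trait of the group.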
